A study of Mus musculus with 6 samples.

Results

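Id1, Id2, Id3 and Id4 and their E protein partners Tcf3, Tcf4 and Tcf12 were followed in cells labelled LT-HSC. These are the long-term stem cells of mouse bone marrow from which the whole blood system can be regrown in a transplanted host. The members were chosen by name, as the probe sets whose annotation gives exactly 1 gene symbol and that symbol is one of the 7. All 7 were found among the 22180 genes so named, each by 1 probe set. The study hybridised 6 arrays: 3 with RNA of pools of control animals and 3 with RNA of pools of animals expressing NPMc+, a nucleophosmin mutant that lies in the cytoplasm. Per the labels, both groups were of strain C57/BL6, and their cells were sorted from bone marrow 4 months after a bone marrow transplant. The animals' age, the promoter or allele behind the mutant, and the treatment of the controls are not given in the labels used here. A pool gives 1 value for several animals, so the spread between animals was not measured.

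Id proteins are helix-loop-helix proteins without the basic region that contacts DNA. They pair with E proteins, the basic helix-loop-helix factors encoded by Tcf3 (E2A, with its products E12 and E47), Tcf4 (E2-2) and Tcf12 (HEB), and the pair cannot bind DNA. E proteins otherwise bind E boxes, with the letters CANNTG, as dimers with each other or with tissue factors such as Tal1 and Lyl1, and they drive genes of the B and T lineages. Id genes are induced by bone morphogenetic proteins through Smad factors, and Id2 is needed for natural killer cells, innate lymphoid cells and several dendritic cells.

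The upstream sequences of Id2, Id3 and Id4 are shown because the results turn on Id2, and its relatives allow a comparison. Each is the 250 bases before the start site given by RefSeq in build GRCm38.p6, 5′ to 3′ on the gene's strand. Id2 lies at chr12:25096093-25096342 (minus strand), Id3 at chr4:136143572-136143821 (plus strand) and Id4 at chr13:48260866-48261115 (plus strand). Capitals mark E boxes (CANNTG) and CCAAT boxes on either strand (CCAAT or ATTGG).
Id2: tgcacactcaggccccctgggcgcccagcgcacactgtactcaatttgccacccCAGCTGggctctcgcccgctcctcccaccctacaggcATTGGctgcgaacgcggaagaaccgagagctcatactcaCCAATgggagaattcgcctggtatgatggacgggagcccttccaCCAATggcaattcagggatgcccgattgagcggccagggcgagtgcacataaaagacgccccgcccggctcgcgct
Id3: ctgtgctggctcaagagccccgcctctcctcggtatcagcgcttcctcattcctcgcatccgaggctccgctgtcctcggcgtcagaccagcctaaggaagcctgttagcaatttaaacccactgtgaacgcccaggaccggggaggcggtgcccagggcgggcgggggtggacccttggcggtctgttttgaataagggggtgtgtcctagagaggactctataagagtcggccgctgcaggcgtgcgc
Id4: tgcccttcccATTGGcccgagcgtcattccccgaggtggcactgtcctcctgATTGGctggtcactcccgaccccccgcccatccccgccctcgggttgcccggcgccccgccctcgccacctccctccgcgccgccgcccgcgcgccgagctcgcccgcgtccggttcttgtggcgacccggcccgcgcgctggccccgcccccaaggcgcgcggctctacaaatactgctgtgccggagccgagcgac

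The Id2 stretch held 1 E box, of the form CAGCTG, which begins 196 bases before the start. No CANNTG match was found in the Id3 and Id4 stretches. Of 32851 RefSeq promoter entries of the same length, 66.2% held at least 1 match to CANNTG and 13% a match to CAGCTG, which is 1 of its forms. CCAAT boxes numbered 3 in Id2, beginning 159, 120 and 76 bases before the start, 2 in Id4 and 0 in Id3. At least 3 were found in 2.79% of entries and at least 2 in 10.1%. The CCAAT motif was searched after the sequences had been seen. Sequence entries of 5 of the 7 genes were used in all, and none was used for Id1 and Tcf4. A match describes letters, not binding, and no binding or methylation was measured.

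Same-numbered control and NPMc+ arrays are tied in the deposited values. In 100% of 41345 probe sets the 3 pairs had equal means to within 0.001 log2 units. An effect of the replicate number was thus already taken out, the arrays of a pair mirror each other, and both groups show the same spread. The independent error is that of the 3 differences within pairs, and standard errors (SE) below are those of limma with the replicate number as a block. The labels call each array a separate pool and the series text calls the replicates biological. Of 16635 genes tested, 0% passed an adjusted p of 0.05 in limma (0 genes). At the looser criterion, an unadjusted limma p under 0.05, 8.97% were called (1492 genes), 5.95% higher and 3.02% lower in NPMc+. In these values, groups that do not overlap and 1 sign in 3 of 3 pairs come to nearly the same thing, and 30.3% of genes had 1 sign, 17.4% higher and 12.9% lower. The 17 measured LT-HSC markers had mean levels of 5.82 to 5.94 log2 units on control arrays and 6.35 to 6.46 on NPMc+ arrays. Of them, 9 were higher and 0 lower in NPMc+ at the looser criterion. A difference between groups cannot check the labelled cell type. Markers of mature cells were also present in both groups, such as Mmp8, a neutrophil collagenase, at 10.82 log2 units in control and 9.02 in NPMc+. The 21 neutrophil and monocyte markers had mean levels of 9.36 to 9.70 in control and 8.82 to 9.17 in NPMc+. These lie above the mean levels of the LT-HSC markers. The share of RNA from other cell types was not measured. Xist, which coats the silenced X chromosome of females, differed by -5.44, -5.39 and 0.48 log2 units in pairs 1, 2 and 3. Of the Y-linked genes, Uty differed by 4.68, 0.93 and 0.35, Kdm5d by 3.48, 1.29 and -0.67 and Eif2s3y by 5.49, 0.36 and -0.79.

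Id2 was lower in NPMc+ cells, by 2.12-fold, and was the 1 gene of the 7 that met the looser criterion, which 8.97% of all genes tested met. Its level was 7.004, 7.26 and 7.04 log2 units in control replicates 1, 2 and 3. In the NPMc+ replicates it was 6.12, 5.86 and 6.08 log2 units. Every NPMc+ array thus lay below every control array, and the groups did not overlap. In these tied values that is nearly the same as 1 sign in 3 of 3 pairs, which 12.9% of all genes tested had on the lower side. The differences within pairs 1, 2 and 3 were -0.89, -1.39 and -0.96 log2 units, with a mean of -1.08 ± 0.19 (SE, n = 3 pairs; 95% interval -1.55 to -0.62). Id2 stood at rank 60 of the 16635 genes by limma p and at rank 202 by the size of the difference. Its unadjusted limma p was 0.00107, and after Benjamini-Hochberg adjustment over all genes it did not pass (adjusted p 0.296). Without the replicate block, limma gave an adjusted p of 0.0146. That fit counts the removed replicate effect as free spread. Over the alternative settings the limma adjusted p of Id2 ran from 0.0146 to 0.521. The pairs also differed in sex-linked transcripts, as given above, and the part of these differences in that of Id2 was not tested.

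**Figure D1:**
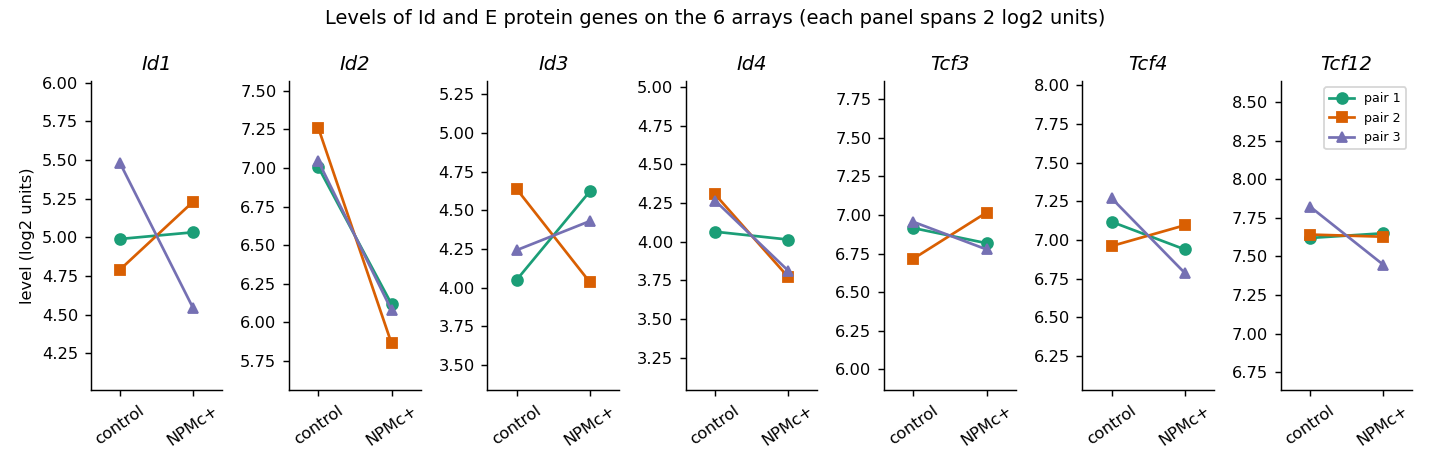
Level of each gene (log2 units, vertical axis) on the 3 control and 3 NPMc+ arrays, with lines joining same-numbered arrays; each panel spans the same range on its own scale. The 3 lines of Id2 run down from 7.004 to 7.26 in control to 5.86 to 6.12 in NPMc+. The lines of every gene meet at 1 midpoint because the replicate effect was removed, and those of Id2 and Id4 all run down, while Id1, Id3, Tcf3, Tcf4 and Tcf12 have lines in both directions.

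Id1, a target of bone morphogenetic protein signals in many cell types, went different ways in the pairs. It measured 4.99, 4.79 and 5.48 log2 units in the control replicates and 5.03, 5.23 and 4.54 in the NPMc+ replicates. The groups overlapped, since NPMc+ was higher in pairs 1 and 2 and lower in pair 3. Its mean difference was -0.15 ± 0.29 log2 units (SE, n = 3 pairs; 95% interval -0.84 to 0.53), and without pair 3 it was 0.24. The 95% interval allows from 1.79-fold lower to 1.45-fold higher in NPMc+.

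Id3, which restrains E proteins in developing B and T cells, had 4.05, 4.64 and 4.24 log2 units in control and 4.62, 4.04 and 4.43 in NPMc+. Pair 2 was lower in NPMc+ by 0.60 log2 units and the other pairs were higher, so the groups overlapped. The mean difference was 0.05 ± 0.26 log2 units (SE, n = 3 pairs; 95% interval -0.57 to 0.67). It changed sign when pair 1 was left out (-0.21) and when pair 3 was left out (-0.02).

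Id4, the Id gene best known from the nervous system, had 4.06, 4.31 and 4.27 log2 units in control and 4.01, 3.77 and 3.81 in NPMc+. No NPMc+ array reached the lowest control array, though the gap in pair 1 was 0.05 log2 units. Such a pattern of 1 sign in 3 of 3 pairs, in either direction, was seen in 2 of the 7 genes, Id2 and Id4, and in 30.3% of all genes tested. The mean difference was -0.35 ± 0.19 log2 units (SE, n = 3 pairs; 95% interval -0.81 to 0.11). Its unadjusted limma p was 0.117, which does not meet the looser criterion. Without the replicate block the limma p was 0.0170, with an adjusted p of 0.116. The mean level of Id4 stood at the 48.4th percentile of all named genes and that of Id3 at the 53.0th. No detection measure was used, so how far these genes, and others named here at such levels or lower, lie above background is unknown.

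**Figure D2:**
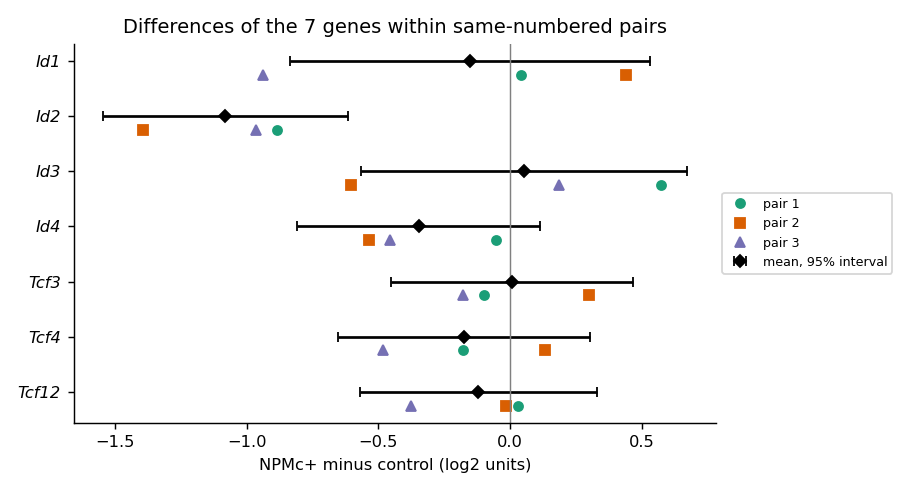
NPMc+ minus control (log2 units, horizontal axis) for the 7 genes; diamonds and bars are the mean and 95% interval of the limma fit with the replicate block, and coloured symbols are the 3 pairs. The interval of Id2 (-1.55 to -0.62) lies below 0, and the other 6 intervals include 0.

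The 3 E protein genes showed no difference that met the looser criterion. Tcf3, whose products start the B lineage programme, had 6.91, 6.72 and 6.95 log2 units in control and 6.82, 7.01 and 6.78 in NPMc+. The groups overlapped, and the mean difference was 0.01 ± 0.19 (SE, n = 3 pairs; 95% interval -0.45 to 0.47), with the sign turned to -0.067 after quantile normalization. That interval allows up to 1.37-fold lower or 1.38-fold higher.

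Tcf4, the E protein needed for plasmacytoid dendritic cells, measured 7.12, 6.96 and 7.27 log2 units in control and 6.94, 7.10 and 6.79 in NPMc+. Pair 2 was higher in NPMc+ and pairs 1 and 3 lower, with a mean difference of -0.18 ± 0.20 (SE, n = 3 pairs; 95% interval -0.65 to 0.30). Without pair 3 the Tcf4 difference was -0.022, and without pair 2 it was -0.33. Tcf12, which acts beside Tcf3 in early T cells, had 7.62, 7.64 and 7.82 log2 units in control and 7.65, 7.63 and 7.45 in NPMc+. Its groups overlapped, since pairs 1 and 2 differed by 0.03 and -0.01 and pair 3 by -0.38. The mean difference was -0.12 ± 0.19 (SE, n = 3 pairs; 95% interval -0.57 to 0.33), and without pair 3 it was 0.01.

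Set against the mean of the 3 E protein genes on the same arrays, the difference of Id2 was further down by 0.80, 1.53 and 0.62 log2 units in pairs 1, 2 and 3. The E protein mean itself differed by -0.08, 0.14 and -0.35. Id2 and the E protein genes thus differed unequally in each of the 3 pairs. These are differences of RNA signals and give no ratio of proteins.

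**Figure D3:**
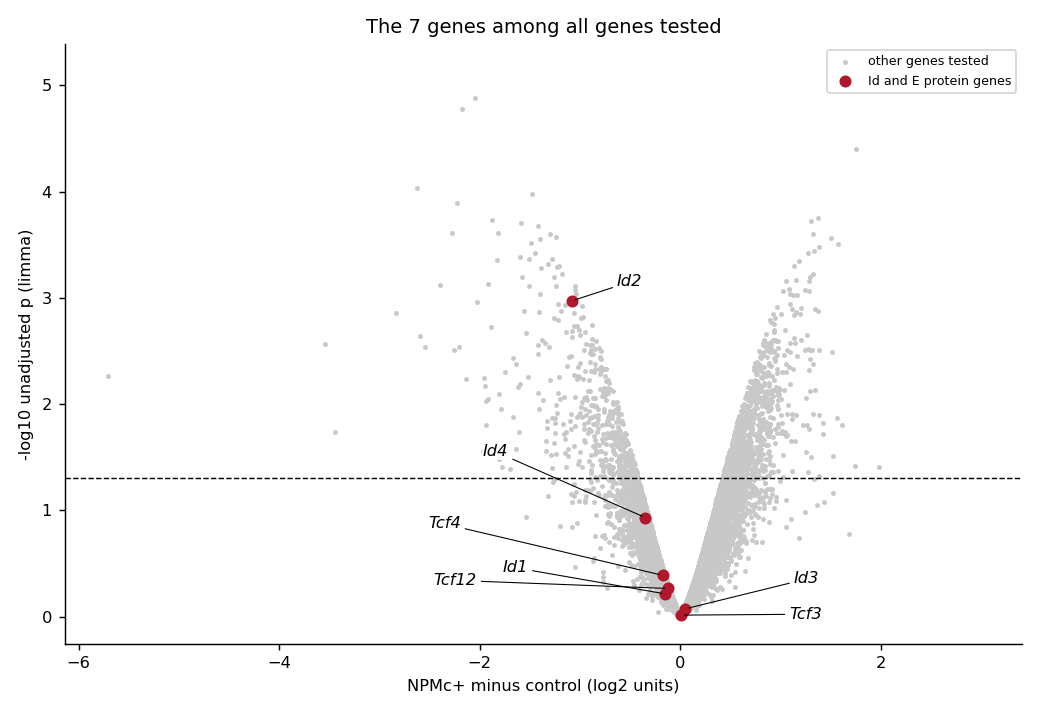
NPMc+ minus control (log2 units, horizontal axis) against -log10 of the unadjusted limma p (vertical axis) for the 16635 genes tested, with the 7 genes in red and a dashed line at the looser criterion. Id2 lies above the line on the lower side, and the other 6 genes lie below the line.

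Genes whose 3 pair differences came closest to those of Id2 were named by the smallest value of the largest gap over the pairs. Among 14482 candidate genes, 3 lay within 0.2 log2 units of Id2 in all pairs. These were Fcrl1, a receptor of B cells (largest gap 0.11), Nlrp3, an inflammasome sensor (0.15), and Siglece, a sialic acid receptor of myeloid cells (0.19). The next were Ifi30, a lysosomal thiol reductase (0.20), and Lgmn, a lysosomal protease (0.22). For Id4, the member with the next smallest p, 191 genes lay within 0.2, led by Shisa7 (0.05), Dmrtc1a (0.05), Pramel7 (0.05), Rrm2 (0.06) and Cyp8b1 (0.06). A pattern over 3 pairs is a short one, and many genes share that of Id4.

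Cells of other lineages express Id2 as well, so their markers are given beside it. The list counts from here on stand beside 5.95% higher and 3.02% lower among all genes tested at the looser criterion. B cell markers were lower in 8 of 11 tested genes at the looser criterion and higher in 0, with pair medians of -1.25, -1.21 and -1.20 log2 units. Ms4a1, which encodes CD20, and Ebf1, the factor of B cell commitment, were 4.13-fold and 4.51-fold lower. The mean level of the B cell list was 5.62 to 5.65 log2 units on control arrays and 4.51 to 4.54 on NPMc+ arrays. Of 15 T and NK cell markers, 6 were lower and 2 higher, with pair medians of -0.37, -0.33 and -0.67 and mean levels of 5.31 to 5.44 and 4.63 to 4.75. Cd3d, a chain of the T cell receptor complex, and Xcl1, a chemokine of NK and T cells, were 2.78-fold and 4.68-fold lower. The 2 higher genes were Gzmb and Nkg7, at 1.79-fold and 1.39-fold. Without pair 1 the T and NK cell list had 7 lower and 1 higher, with a median of -0.26 against -0.48, and without pair 2 it had 6 and 1.

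Neutrophil and monocyte markers were lower in 8 of 21 and higher in 0. Their pair medians were -0.53, -0.81 and -0.17, and their mean levels 9.36 to 9.70 in control and 8.82 to 9.17 in NPMc+. Ly6g and Mmp8, both of late neutrophils, were 4.40-fold and 3.50-fold lower. In pairs 1, 2 and 3, Ly6g differed by -3.51, -2.48 and -0.42 log2 units and Mmp8 by -2.77, -2.45 and -0.20. The primary granule genes Elane, Prtn3, Mpo and Ctsg, of earlier precursors, differed by 0.32, 0.36, 0.17 and 0.02 log2 units, short of the looser criterion. Without pair 1 the list had 3 lower genes, without pair 2 it had 2, and without pair 3 it had 11 lower and 1 higher. Dendritic cell markers were lower in 3 of 8 and higher in 0, with pair medians of -0.44, -0.34 and 0.00 and mean levels of 5.58 to 5.68 and 5.19 to 5.29. The class II genes H2-Eb1 and H2-Aa were 2.08-fold and 1.89-fold lower. Zbtb46, Xcr1, Batf3 and Itgax of the same list differed by -0.25, -0.27, -0.08 and 0.08 log2 units, short of the looser criterion. Without pair 1 the dendritic cell list had 2 lower genes and a median of -0.16 against -0.26. Whether these cells take part in the Id2 difference was not tested. In sorted bulk RNA, fewer cells of a type and less RNA per cell cannot be told apart.

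Erythroid markers were lower in 8 of 13 and higher in 0 at the looser criterion, with a median of -0.72 log2 units, mean levels of 6.64 to 7.10 in control and 6.02 to 6.48 in NPMc+, and Ermap and Tfrc at 2.54-fold and 1.72-fold lower. Megakaryocyte markers were higher in 7 of 11 and lower in 1, with a median of 0.79, mean levels of 5.11 to 5.27 and 5.73 to 5.89, and Itga2b and Selp at 2.51-fold and 1.73-fold higher. LT-HSC markers, 9 of 17 higher, had a median of 0.50, with Erg and Mecom 1.86-fold and 2.51-fold higher and mean levels of 5.82 to 5.94 and 6.35 to 6.46. Others of this list fell short of the looser criterion, among them Procr, Tek and Eng at 0.08, 0.03 and 0.14 log2 units. Fgd5 and Robo4 differed by -0.20 and -0.22. Endothelial cells are known for their Id1 and Id3, and endothelial and stromal markers were higher in 1 of 10 (Pecam1, 1.69-fold) and lower in 1 (Emcn, 1.71-fold), with a median of 0.07 and mean levels of 4.07 to 4.13 and 4.09 to 4.16. The median over all genes tested was 0.03. Without pair 1 the erythroid list had 5 lower genes. Megakaryocyte genes past the criterion on the higher side numbered 4, 5 and 3 without pair 1, 2 or 3, and 0 were lower without pair 2 or 3. In the endothelial and stromal list 0 were lower without pair 1 or 2.

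**Figure D4:**
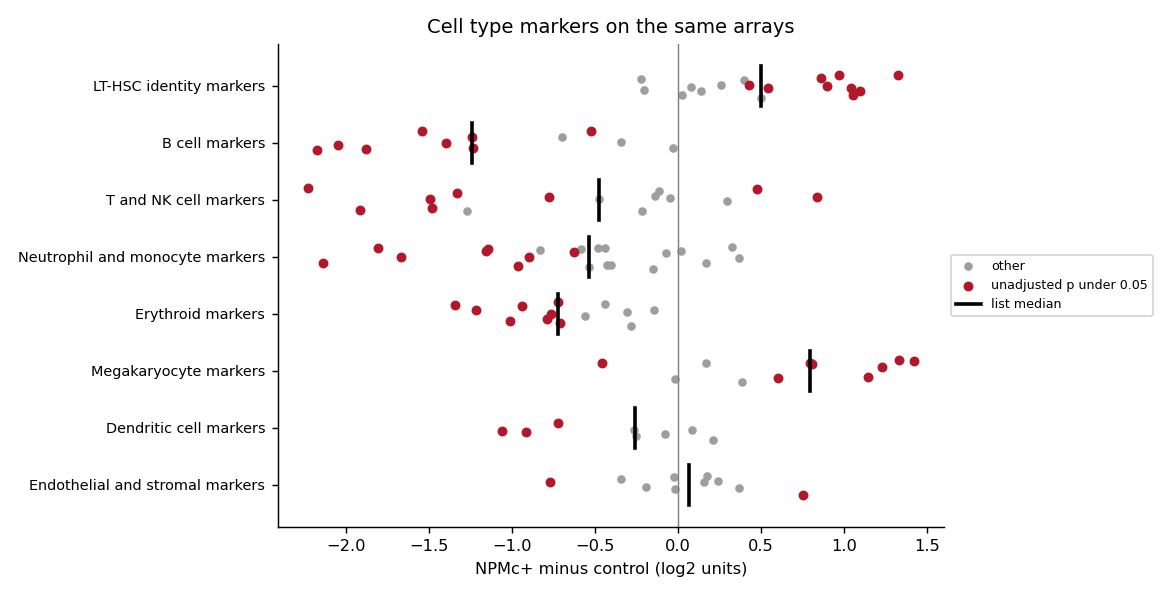
NPMc+ minus control (log2 units, horizontal axis) for each tested gene of 8 cell type marker lists; red points met the looser criterion, and black bars are list medians. The B cell list lies furthest to the lower side, with a median of -1.24, and the megakaryocyte list furthest to the higher side, with a median of 0.79.

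The cofactors with which E proteins form complexes in stem cells had positive differences in 12 of the 17 genes tested. Over all genes tested, 9131 of 16635 were positive. Of these 17 genes of the Tal1 complex and its cofactors, 4 were higher and 1 lower at the looser criterion, with a median of 0.24 log2 units. Gata2, a zinc finger factor of stem cells that joins the complex, was 2.05-fold higher (1.04 ± 0.27 log2 units, SE) and is also counted as an LT-HSC marker. Cbfa2t3, the corepressor ETO2, was 1.64-fold higher, Ssbp4, a partner of the bridging protein Ldb1, 1.74-fold, and Lyl1, a direct E protein partner, 1.51-fold. Tal2, a Tal1 relative, was 1.56-fold lower. Its mean level stood at the 34.8th percentile of all named genes, and how far it lies above background is unknown. Tal1 itself differed by -0.84, 1.20 and 0.50 log2 units in pairs 1, 2 and 3. Without pair 2 the counts of this list were 1 higher and 1 lower, with a median of 0.13, and without pair 1 they were 3 and 0.

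Upstream of the Id genes, 5 of 27 tested genes of the BMP and TGF-beta pathway were higher and 0 lower, with a median of 0.13 log2 units. Smad5, a signal transducer of BMP receptors, was 1.73-fold higher, with pair differences of 0.81, 0.77 and 0.78. The TGF-beta side had Smad3 at 1.93-fold, the receptor gene Tgfbr2 at 1.58-fold and the ligand gene Tgfb1 at 1.43-fold higher. Smad7, an inhibitor of both branches, was 1.48-fold higher. Smad1, the other main BMP transducer, differed by 0.51 ± 0.22 log2 units (SE), short of the looser criterion. Without pair 1 the count was 3 higher, as it was without pair 3, where the median was 0.06. With no filter on mean level, 6 of 29 genes were higher and 1 lower, with a median of 0.07. The filter had removed the BMP receptor gene Bmpr1a, which differed by -0.48, -0.38 and -0.56 log2 units in pairs 1, 2 and 3. Of 8 genes that control the stability of Id and E proteins, 0 met the looser criterion in limma in either direction, with Usp1, which removes ubiquitin from Id proteins, at -0.06 ± 0.18.

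Among other helix-loop-helix repressors and tissue factors, 1 of 19 tested genes was higher and 1 lower, with a median of -0.04 log2 units that turned to 0.03 without pair 2. Hey1, a repressor downstream of Notch and BMP signals, was 2.19-fold higher, with pair differences of 0.61, 0.94 and 1.85. Heyl, its relative, was 1.501-fold lower. Both shares lie close to those of all genes tested.

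**Figure D5:**
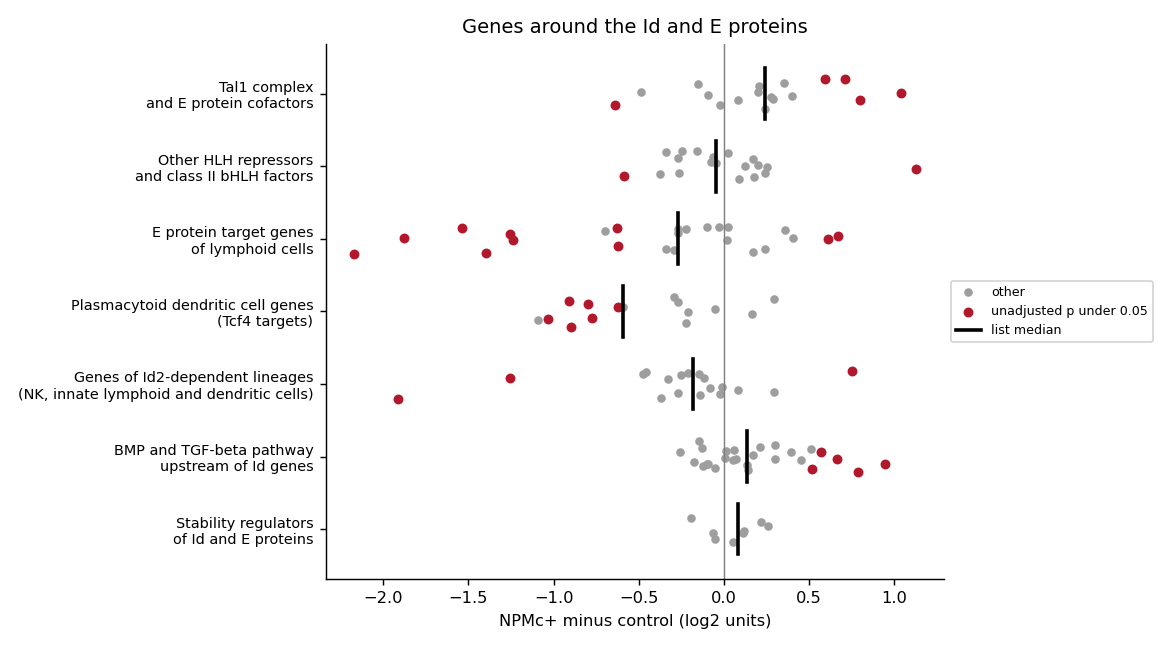
NPMc+ minus control (log2 units, horizontal axis) for each tested gene of 7 lists around the Id and E proteins; red points met the looser criterion, and black bars are list medians. The list of plasmacytoid dendritic cell genes has the lowest median (-0.59) and the list of the Tal1 complex the highest (0.24).

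Lymphoid target genes of E proteins were lower in 8 of 24 tested genes and higher in 2, with a median of -0.27 log2 units. Ebf1 was 4.51-fold lower (-2.17 ± 0.19 log2 units, SE), the adaptor gene Blnk 3.68-fold, the B cell receptor chain Cd79a 2.36-fold, the coactivator gene Pou2af1 2.63-fold, the cytokine receptor Il7r 2.39-fold and the surrogate light chain partner Vpreb3 2.91-fold. Cdkn1a, a cell cycle inhibitor, was 1.59-fold higher and Cdk6, a kinase of cell cycle entry, 1.53-fold higher. Without pair 1, and also without pair 3, 1 gene was higher in place of 2. Of these 6 lower genes, all but Il7r are also in the B cell marker list. With the genes of the marker lists left out, 3 of 16 were lower, Il7r, Rag2 and Dntt, and 2 higher, and the median was -0.04. Rag2, a recombinase subunit (1.54-fold lower), and Dntt, the terminal transferase of lymphoid progenitors (1.55-fold lower), were named after their values had been seen. The mean level of Rag2 stood at the 34.4th percentile of all named genes, and how far it lies above background is unknown. Foxo1 and Notch1, which E proteins also drive, differed by -0.10 ± 0.20 and -0.22 ± 0.19.

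Genes of plasmacytoid dendritic cells, the cell type that depends on Tcf4, were lower in 6 of 15 and higher in 0, with a median of -0.59 log2 units and pair medians of -0.69, -0.52 and -0.55. Siglech, their surface lectin, was 2.05-fold lower, the endosomal protein gene Pld4 1.86-fold, the transcription factor genes Spib and Irf8 1.54-fold and 1.74-fold, Klk1 1.88-fold and the RNA sensor Tlr7 1.71-fold. Tcf4 was measured on the same arrays at -0.18 ± 0.20. Without pair 1 the count of lower genes was 2, with a median of -0.40, and without pair 2 it was 5, with a median of -0.39. Bcl11a, which also acts in stem cells and B cells, differed by 0.16 ± 0.22.

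In the lineages that need Id2, genes of natural killer, innate lymphoid and dendritic cells were lower in 2 of 18 and higher in 1, with a median of -0.18 log2 units (-0.39 without pair 3). Klrd1, the CD94 receptor of natural killer cells, was 3.77-fold lower and is also a T and NK cell marker, and Il7r was 2.39-fold lower. Zbtb16, a factor of innate lymphoid precursors that stem cells express too, was 1.69-fold higher, with pair differences of 0.83, 0.88 and 0.54. Gata3, Nfil3 and Tox, early factors of these lineages, differed by -0.02 ± 0.18, -0.33 ± 0.19 and -0.46 ± 0.24 log2 units, short of the looser criterion. Over the 7 lists together, which share some genes, 13 of 125 distinct tested genes were higher and 17 lower. When genes of the marker lists were left out, 11 were lower. Among all genes tested, 5.95% were higher and 3.02% lower at the looser criterion.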

How the data were processed

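The authors deposited log2 expression values of 41345 probe sets on 6 arrays, and RMA is named per the submitters' processing notes; the sources used here give no version and no later step. RNA was amplified before labelling per the labels' protocols, and amplification can change the relative signal of genes. Array medians lay between 3.90 and 3.99 log2 units. The number of arrays limits the precision.

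Groups and replicate numbers were taken from the sample titles. Of the probe sets, 23521 had 1 gene symbol and stood for 22180 genes, of whose probe sets the one of highest mean level was kept; the 7 members' symbols matched the RefSeq table by gene identifier. A filter removed the genes under the 25th percentile of mean level (3.01 log2 units), and all 7 members passed it. Differences within same-numbered pairs were tested over 16635 genes with two-sided moderated tests of limma 3.58.1 (lmFit and eBayes, R 4.3.3) in a model holding the replicate number as a block (2 residual and 4.54 prior degrees of freedom) and Benjamini-Hochberg adjustment. The pairing comes from the tied values, in which the 3 pair means of a probe set have a largest range of 6.5e-05. The script was tested on simulated data. Lists are described by counts and medians, with no set test.

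The members and lists were chosen with earlier results of these data known. The text names all members, up to 6 genes in each direction of each pathway list at the looser criterion, the 2 marker genes of smallest p per list, and the 5 genes nearest in pattern to the 2 members of smallest p; genes named beside these were chosen for their role after values were seen. Alternatives were the fit without the block, leaving out each pair, quantile normalization, median centring, other filters, the mean of probe sets and an intensity trend. Figures were drawn with matplotlib 3.10.9.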

Additional observations from a re-analysis of the deposited data

How the results depend on the processing

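Each member has 1 probe set, so only leaving out a pair, quantile normalization and median centring could change the sign of its difference. The other alternatives change its SE or the genes tested. Id2 kept its direction where it could change, with differences of -1.18 to -0.92 log2 units, and met the looser criterion under all 10 alternatives. Id4 and Tcf4 also kept their direction where it could change. Leaving out 1 pair gave -0.45 to 0.24 log2 units for Id1, -0.21 to 0.38 for Id3, -0.14 to 0.10 for Tcf3 and -0.19 to 0.0082 for Tcf12, so these 4 reversed; Tcf3 also reversed after quantile normalization (-0.067). The causes were not tested. Without the replicate block, a fit that counts more free spread than the tied values contain, the looser criterion called 2500 genes higher and 1638 lower, the adjusted threshold 557 higher and 271 lower, and 2 members lower, Id4 joining at -0.35; in the pathway lists 23 were higher and 25 lower. Leaving out 1 pair gave 0 to 1 genes higher and 0 to 23 lower at the adjusted threshold. With genes of the marker lists left out, an alternative chosen after seeing the data, 11 pathway genes were lower against 17. Id4 was not tested at the 50th percentile filter. A gene with the median SE of 0.20 log2 units needs an observed 1.4-fold difference for an unadjusted limma p of 0.05. The smallest difference that met the looser criterion in any gene tested was 0.42 log2 units. Small differences of E protein genes may thus have been missed.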
